A study of Mus musculus with 27 samples.

Results

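WSB/EiJ is an inbred mouse strain derived from wild mice. Its hepatocyte DNA methylomes were taken as the 3 samples whose labels give that strain, out of 27 samples of 9 inbred strains, and were compared with the 24 samples of the other 8 strains. These were C57BL/6J, A/J, PWK/PhJ, CAST/EiJ, NZO/HlLtJ, NOD/ShiLtJ, DBA/2J and 129S1/SvImJ, with 3 samples each. All samples were hepatocytes from the livers of female mice aged 12 weeks, with no treatment given in the labels, and the replicates are labelled as biological. Methylation was measured by reduced representation bisulfite sequencing, which cuts DNA with MspI and so reads mainly CpG-rich sequence.

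In mammals, methyl groups sit mostly on cytosines followed by guanine (CpG sites), and most of the genome is methylated. CpG islands at gene starts are the usual exception and are kept unmethylated. Inbred strains differ in methylation at many places, and in hepatocytes low methylation away from gene starts often marks enhancers and other regulatory sequence.

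A position is a single cytosine on 1 strand, and its level is the percentage of reads called methylated there. Of 5240546 positions listed in at least 1 sample, 1692477 were listed in all 27. Means were taken over tiles of 1 kb with at least 5 such shared positions, and 45604 tiles and 704331 positions had a mean over samples at least 2.5 points from 0 and 100% and were tested. A tile or position is called set apart when its adjusted p from limma was under 0.05 and all 3 WSB/EiJ samples lay at least 10 percentage points above, or below, all 24 other samples. The limma p-values weigh strain differences against the spread between samples of the same strain. They thus do not measure whether WSB/EiJ is unusual among strains. The files hold no read counts, so the depth behind each level is unknown.

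Samples of WSB/EiJ listed 3156965, 3086908 and 3029130 positions, against 2904787 to 3126017 in the others (exact permutation test, two-sided, p = 0.0998, adjusted over 3 such tests p = 0.150). Mean methylation over shared positions was 27.5%, 27.2% and 27.4% in WSB/EiJ, and its lowest, median and highest values elsewhere were 27.3%, 27.7% and 28.6%. The difference of -0.502 points had p = 0.0359 by the exact permutation test and 0.108 after adjustment, and the WSB/EiJ values overlapped the others' range. These permutation tests shuffled single samples, and samples of the same strain are not independent. Their p-values thus do not measure whether WSB/EiJ is unusual among strains. By strain means of methylation WSB/EiJ was not the lowest over shared positions, with 27.3878% against 27.3874% in C57BL/6J. At the tested positions alone it was the lowest, but only by 58.90% against 58.92% in C57BL/6J. Over shared positions, without any 1 of the WSB/EiJ samples, the exact permutation p was 0.0615 to 0.157. The share of X positions at 20 to 80%, a range in which an active and an inactive X copy place many CpGs, was 41.3%, 41.0% and 41.6%, against 33.6% to 45.1% elsewhere (exact permutation p = 0.846). Over the 9 measured start windows of hepatocyte marker genes the WSB/EiJ means ran from 0.354% at Cebpa to 10.2% at 1 start of Hnf4a. The level was 0.354% ± 0.226 (SD, n = 3) at Cebpa, a liver transcription factor gene, and 0.392% ± 0.445 (SD, n = 3) at Ass1, a urea cycle gene. The other 24 samples had 0.147% to 0.926% and 0.0601% to 1.11% there. At that Hnf4a start, of another liver transcription factor gene, WSB/EiJ had 23.0%, 3.74% and 3.97% against 0.758% to 20.9%, so 1 WSB/EiJ sample lay above the others. At Fgb, a fibrinogen gene, it had 2.47%, 4.68% and 13.3% against 0.585% to 11.5%.

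By tiles, WSB/EiJ was set apart mostly by lower methylation. Of the 45604 tiles, 9 were set apart higher (0.0197%) and 45 lower (0.0987%). The tiles set apart higher had means of 20% or less in every other strain, and those set apart lower were mostly at intermediate levels elsewhere. With a gap of 25 points in place of 10 the split was 5 higher and 6 lower, and without CAST/EiJ and PWK/PhJ it was 40 higher and 71 lower. Leaving out a WSB/EiJ sample, which leaves fewer samples that must lie apart, gave 14, 14 and 15 tiles higher. Close to the limit, 6 lower tiles had a gap of 10 to 11 points, and 4 higher and 6 lower tiles missed it with 9 to 10.

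The same rule applied to each other strain gave 271 tiles in CAST/EiJ and 303 in PWK/PhJ, the other wild-derived strains, and 9 to 29 in the 6 remaining strains. The share that was lower was 83.3% in WSB/EiJ, 88.9% of 18 tiles in DBA/2J and 13.8% of 29 in A/J. It was 63.2% of 19 in C57BL/6J and 22.2% (129S1/SvImJ) to 60% (NZO/HlLtJ) in the rest. Over all 45604 tiles C57BL/6J leaned lower about as much as WSB/EiJ, with median differences of -0.565 and -0.550 points. By adjusted p alone, 735 tiles were higher and 2049 lower in C57BL/6J, and 763 and 2357 in WSB/EiJ. These counts stand side by side and their differences were not tested. Among single positions, 311 were set apart higher in WSB/EiJ (0.0442%) and 385 lower (0.0547%). That order did not hold under all settings: a gap of 25 points gave 136 higher and 116 lower, the largest of 8 pairwise p-values 158 and 59, and an offset of 1 point in the log ratio 283 and 282. By positions A/J had more than WSB/EiJ, with 731 higher and 49 lower, 780 in all against 696.

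**Figure D1:**
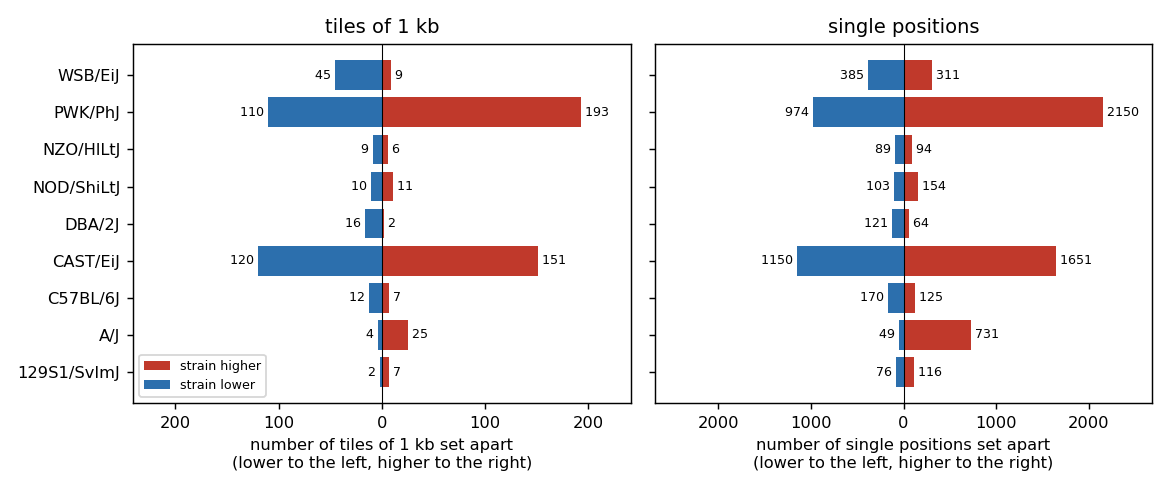
Number of 1 kb tiles (left) and single positions (right) set apart in each of the 9 strains, with counts of lower features drawn to the left and of higher features to the right of 0. WSB/EiJ has 45 lower and 9 higher tiles, in all fewer than CAST/EiJ and PWK/PhJ and more than each of the 6 remaining strains, while A/J (25) and NOD/ShiLtJ (11) have more higher tiles and A/J has more positions.

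The promoter sequences of Gal, Rnf26 and Armh3 are shown as examples that hold positions set apart higher in WSB/EiJ. They are from RefSeq on GRCm38.p6, are the 250 bases before the annotated start, 5′ to 3′ on the gene's strand, and carry the positions set apart in WSB/EiJ in capitals. A capital G marks a position on the opposite strand. The Gal window is chr19:3414545-3414794 on the minus strand, that of Rnf26 chr9:44113052-44113301 on the minus strand, and that of Armh3 chr19:45998489-45998738 on the minus strand.
Gal: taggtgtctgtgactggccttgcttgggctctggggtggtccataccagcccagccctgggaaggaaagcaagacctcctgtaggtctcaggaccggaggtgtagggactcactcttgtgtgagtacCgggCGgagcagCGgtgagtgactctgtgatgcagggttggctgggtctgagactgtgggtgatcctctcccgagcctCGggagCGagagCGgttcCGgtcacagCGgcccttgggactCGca
Rnf26: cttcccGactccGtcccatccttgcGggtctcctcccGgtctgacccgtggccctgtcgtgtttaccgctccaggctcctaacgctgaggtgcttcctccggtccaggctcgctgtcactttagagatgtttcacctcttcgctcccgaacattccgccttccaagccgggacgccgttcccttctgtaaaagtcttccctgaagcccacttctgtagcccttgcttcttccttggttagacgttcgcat
Armh3: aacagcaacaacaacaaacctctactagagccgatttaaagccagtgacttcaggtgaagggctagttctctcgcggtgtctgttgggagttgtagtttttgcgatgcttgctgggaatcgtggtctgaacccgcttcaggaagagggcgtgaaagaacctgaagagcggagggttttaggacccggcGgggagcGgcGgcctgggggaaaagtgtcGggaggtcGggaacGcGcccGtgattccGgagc
All 17 shared positions of the Gal window were set apart, as were all 4 of the Rnf26 window, and 9 of 18 in the Armh3 window. The windows of Cnn3, with 6 of 54 set apart, and of Tmem267, with 2 of 38, are not shown. Strain-specific sequence was not used here, so whether WSB/EiJ differs from the printed letters was not tested.

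Gal encodes the precursor of the neuropeptide galanin. The tile at its start (chr19:3414001-3415000, 44 positions) was methylated at 78.5%, 74.0% and 79.0% in WSB/EiJ, while the lowest, median and highest of the other samples were 8.90%, 14.03% and 21.6%. All 3 WSB/EiJ samples were far above every other sample, by a gap of 52.4 points, and all 44 positions were higher. The strain difference was 63.0 points (log2 ratio difference 3.83, SE 0.13, limma adjusted p = 2.04e-14).

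Both of the neighbouring tiles on chromosome 2 were higher in WSB/EiJ. The tile in Smtnl1, which encodes a smoothelin-like muscle protein (chr2:84811001-84812000, 5 positions), stood at 81.9%, 78.8% and 80.3%, against 0%, 1.44% and 13.1% as the lowest, median and highest of the others. The adjoining tile overlaps Ube2l6, a conjugating enzyme gene for the ubiquitin-like protein ISG15 (chr2:84810001-84811000, 5 positions), with 87.4%, 79.8% and 79.4% against 5.00% to 25.6%. The differences were 77.4 and 69.9 points (limma adjusted p = 5.06e-11 and 6.6e-11), the largest of the tiles set apart. In the Smtnl1 tile, 2 of the 7 positions listed in all 24 other samples were listed in no WSB/EiJ sample.

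Rnf26 encodes a ubiquitin ligase of the endoplasmic reticulum. Its start tile (chr9:44113001-44114000, 22 positions) was at 34.4%, 40.9% and 37.4% in WSB/EiJ, and the others had 0%, 0.720% and 4.83% as lowest, median and highest. The difference was 36.4 points (limma adjusted p = 8.01e-12). The others' mean of 1.20% lay under the filter on low levels. The tile was thus tested only through WSB/EiJ, and its direction was fixed by the filter. Here 10 of the 32 positions listed in all 24 other samples were listed in no WSB/EiJ sample, so the tile mean rests on the rest.

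The remaining 5 higher tiles were intermediate in WSB/EiJ and low elsewhere. The pseudogene Gm6762 (chr9:35574001-35575000) had 38.1% ± 6.79 (SD, n = 3) in WSB/EiJ and at most 5.98% in any other sample. A tile without a gene, 7057 bp from Mgat5b, had 43.3% ± 1.24 (SD, n = 3) against 5.60% to 13.4%, and one 5079 bp from Socs3, a feedback inhibitor of cytokine signalling, had 40.5% ± 4.31 (SD, n = 3) against 0% to 19.4%. Fgf10, a growth factor gene, had 23.6% ± 3.26 (SD, n = 3) against 0.938% to 5.95%. Izumo4, of a family named for a sperm fusion protein, had 22.1% ± 2.15 (SD, n = 3) against 0.493% to 5.39%. Across all 9 tiles the other strains' means lay at or below 20%, with a median of 3.00% where WSB/EiJ had a median of 40.5%.

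**Figure D2:**
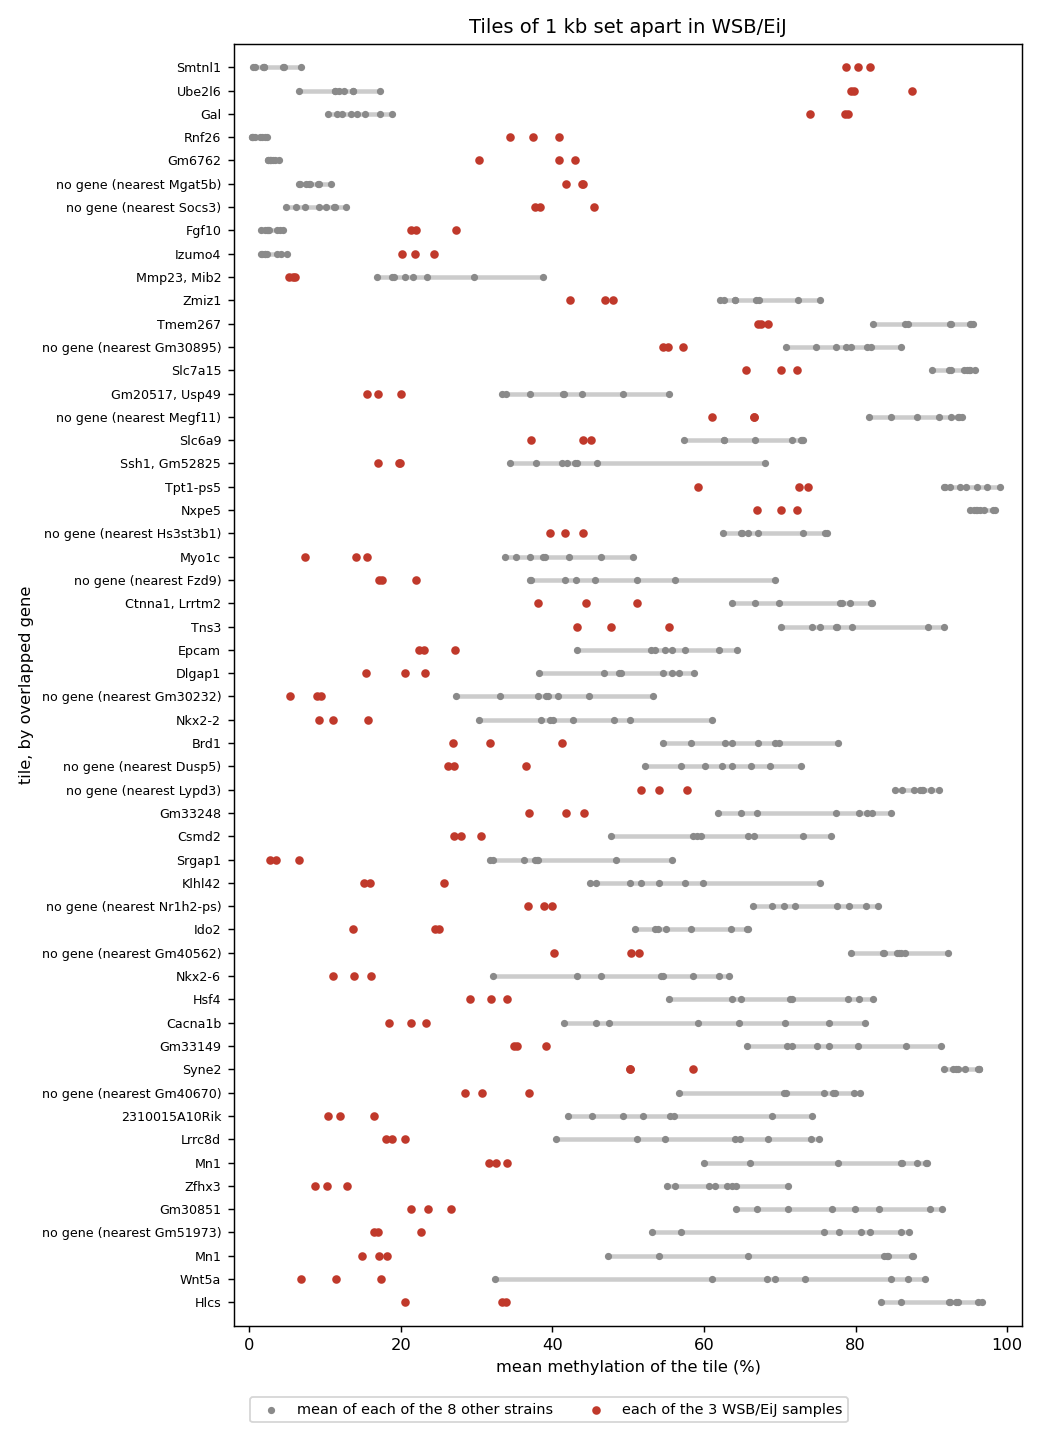
Mean methylation (%) of the 54 tiles set apart in WSB/EiJ, 1 row per tile named by the overlapped or nearest gene, with red points for the 3 WSB/EiJ samples, grey points for the means of the 8 other strains and a grey bar for their range. At the 9 higher tiles at the top the other strain means all lie at or below 18.8%, and the median range of those means is 4.13 points there against 21.9 points at the 45 lower tiles. The higher and lower tiles differ in level, and tiles of like level were not compared.

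The lower tiles were led by Hlcs, which encodes the enzyme that attaches biotin to carboxylases. Its tile (chr16:94248001-94249000, 7 positions) was at 33.4%, 20.6% and 33.9% in WSB/EiJ, and the lowest, median and highest of the others were 80%, 92.8% and 100%. Every other sample was thus highly methylated, and the difference was -62.4 points (limma adjusted p = 1.11e-10). Wnt5a, a ligand of noncanonical Wnt signalling, had 11.5%, 17.4% and 6.86% against 29.7%, 70.8% and 94.0%. There C57BL/6J was nearest, with a strain mean of 32.4%, and the difference from all others was -58.7 points (limma adjusted p = 1.36e-10).

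Mn1, a transcriptional coregulator gene, held the longest lower stretch. Its tile at chr5:111419001-111420000 (63 positions) had 18.2%, 17.1% and 14.9%, against 46.6%, 82.8% and 89.4% as the lowest, median and highest of the others. The next tile (chr5:111420001-111421000, 94 positions) had 31.7%, 32.6% and 34.0%, against 58.9%, 85.8% and 92.3%. NOD/ShiLtJ was nearest in both, with strain means of 47.3% and 60.1%. All 63 positions of the first tile and 92 of 94 of the second were lower (differences of -57.6 and -47.6 points, limma adjusted p = 4.16e-13 and 1.87e-12). A run of 67 set apart positions covered 1206 bp. In the 500 bp to either side WSB/EiJ had 34.3% to 40.3%, below the 54.0% to 86.6% of the other samples, so the lower methylation did not end with the run.

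Of the remaining 11 lower tiles among the 15 with the largest differences, 6 overlapped protein-coding genes. Zfhx3, a transcription factor gene, had 10.6% ± 2.12 (SD, n = 3) against 44.4% to 74.0%. Lrrc8d, a subunit of volume-regulated anion channels, had 19.2% ± 1.33 (SD, n = 3) against 37.3% to 81.3%. Syne2, a nuclear envelope protein gene, had 53.0% ± 4.78 (SD, n = 3) where all other samples had 89.6% to 97.3%. Cacna1b, a calcium channel gene, had 21.1% ± 2.41 (SD, n = 3) against 37.9% to 85.8%. Its tile was no longer set apart under 3 alternative settings, the most of the named tiles. Hsf4, a heat shock factor gene, had 31.7% ± 2.43 (SD, n = 3) against 49.1% to 85.1%. Nkx2-6, a homeobox gene, had 13.6% ± 2.51 (SD, n = 3) against 29.7% to 67.7%. The long noncoding RNA genes Gm30851, 2310015A10Rik and Gm33149 held 1 tile each, at 23.9%, 12.9% and 36.5% in WSB/EiJ on average and at least 55.7%, 34.7% and 59.2% in the others. The 2 tiles without a gene, nearest to the noncoding RNA genes Gm51973 and Gm40670, had 18.7% ± 3.40 and 32.02% ± 4.41 (SD, n = 3) in WSB/EiJ, against at least 51.0% and 54.9%.

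The other strains differed more among themselves at the lower tiles. The range of the 8 other strain means had a median of 21.9 points there, against 4.13 points at the higher tiles and 7.34 points over all tested tiles. In 35 of the 45 lower tiles the others' mean lay between 20 and 80%, and in 10 at 80% or above, where all tested tiles had 23.1% and 57.8% in these ranges. WSB/EiJ ended at 20% or below in 17. The nearest strain was C57BL/6J in 13 lower tiles, 129S1/SvImJ in 9 and CAST/EiJ in 8.

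Shorter stretches were found by joining set apart positions within 200 bp of each other into blocks. In 9 higher blocks of at least 3 CpGs the sequence within 500 bp on either side was at 5% or less in all 27 samples. These blocks were picked out after their values were seen and carry no test beyond that of their positions. They spanned 25 to 162 bp, and WSB/EiJ means over their set apart positions were 31.4% to 49.1%, while no other sample exceeded 9.29%. The median of the other samples there was at most 1.60%, apart from 3.58% in the Izumo4 block. Levels up to 1.60% lie below the distance from 0 needed for testing. Such positions were thus tested mainly through raised WSB/EiJ values, so the filter largely fixed their direction. Set apart positions are the highest ones of each span: over all shared positions in the spans the WSB/EiJ means were 17.4% to 39.3%. An annotated gene start lay within 500 bp of 7 of the 9, all but those in H3f3b and Izumo4. The flank rule itself picks unmethylated sequence, such as CpG islands at gene starts, and no share over like sequence was taken. Nothing is thus read from that count. Of the 9, the Izumo4 block alone lay in a tile set apart.

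Brms1l, a gene for a part of a histone deacetylase complex, held the block with the most positions, 24 within 97 bp, starting 47 bp after the annotated start. WSB/EiJ had 40.8%, 42.0% and 44.1% there, and the others had 0%, 0.367% and 2.71% as lowest, median and highest. The flanks of this block were at 0.243% to 0.460% in WSB/EiJ. At Cnn3, which encodes an actin-binding calponin, 12 of the 34 shared positions within 162 bp had 27.7%, 32.8% and 33.7%, against at most 2.27%, and over all 34 the WSB/EiJ mean was 21.4%. At Armh3, 17 positions within 127 bp had 48.0%, 38.4% and 45.4% against at most 5.11%, and all 25 of the span had a WSB/EiJ mean of 30.1%. The blocks at Arl2bp, H3f3b (a histone H3.3 gene), Shc1 (a signalling adaptor), Agpat1 (an enzyme of phospholipid synthesis) and Cox8a (a subunit of cytochrome c oxidase) had 40.3%, 34.9%, 47.5%, 49.1% and 42.6% in WSB/EiJ on average at the set apart positions. Over all shared positions of the spans these means were 35.5%, 17.4%, 27.2%, 37.3% and 25.8%, with 17 of 28, 5 of 11, 4 of 7, 3 of 4 and 3 of 5 positions set apart. Under the same rule CAST/EiJ had 28 such blocks, PWK/PhJ 39 and each of the remaining strains 1 to 4.

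**Figure D3:**
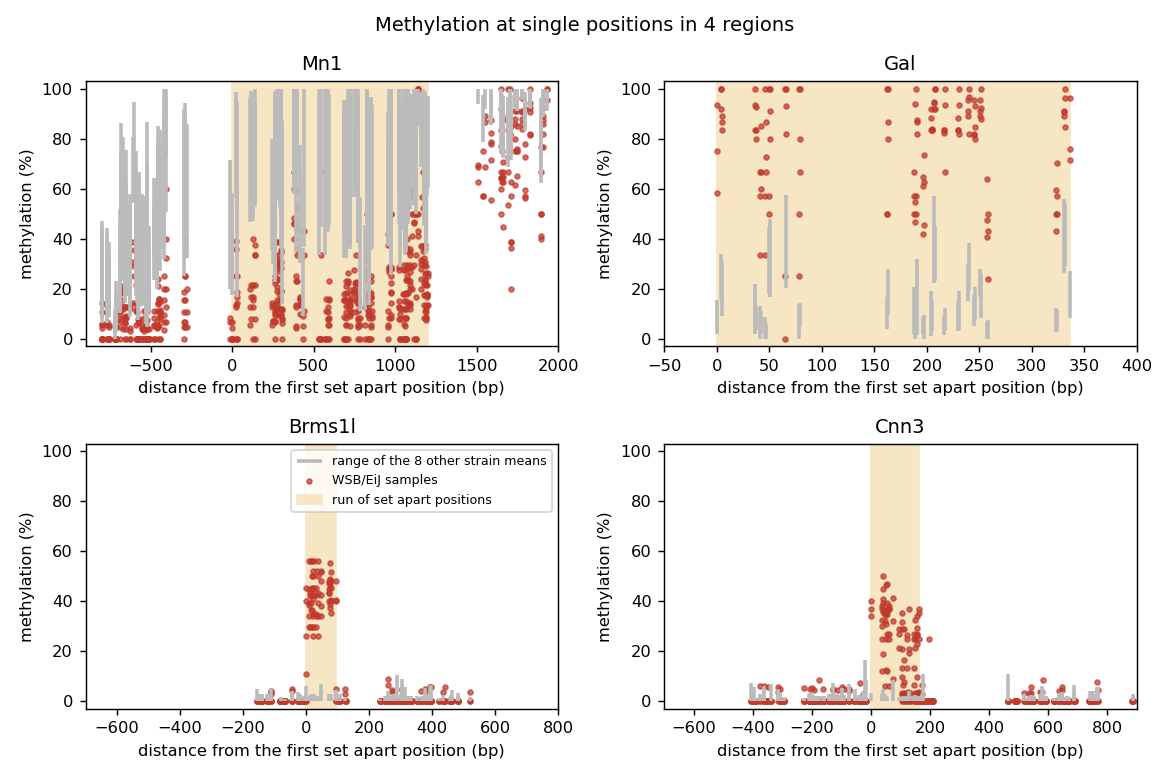
Methylation (%) at single positions against distance from the first set apart position (bp) around Mn1, Gal, Brms1l and Cnn3, with red points for the 3 WSB/EiJ samples, grey bars for the range of the 8 other strain means and shading over the run of set apart positions. At Brms1l and Cnn3 nearly all raised WSB/EiJ points lie inside a block of 97 and 162 bp, while at Mn1 they lie low over 1206 bp and beside it.

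Lower positions were more often isolated. Of the 385 lower positions, 47.5% lay in blocks of a single CpG, against 19.6% of the 311 higher ones. Counted by block the contrast was smaller, with 170 of 213 lower and 56 of 88 higher blocks of a single CpG. Of the single-CpG lower positions, 43 had a WSB/EiJ mean of 5% or less. A C-to-T change of the cytosine itself is read as unmethylated in bisulfite data. The part of such changes was not tested, since no genotypes were used here.

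By chromosome, the highest shares of tested tiles set apart were 0.301% on chromosome 12 (5 of 1662, all lower) and 0.209% on chromosome 9 (2 higher and 3 lower of 2388). Chromosomes 1, 3, X and Y had 0 tiles set apart, of 2478, 1711, 1587 and 4 tested. As all mice were female, the 4 tiles assigned to Y do not measure a Y chromosome. By single positions the order differed: chromosome 19 had the highest share (0.310%, 62 higher and 6 lower), with 38 of the higher ones in the 1 Mb window of Gal and 17 in that of Armh3, and chromosomes 1 and 3 held 25 set apart positions each. No window of 1 Mb held 3 such tiles. Those with 2 were the windows of Smtnl1 and Ube2l6 on chromosome 2 and of Mn1 on chromosome 5, in both cases adjoining tiles. Protein-coding genes were overlapped by 6 of 9 higher and 29 of 45 lower tiles, beside 67.3% of all tested tiles. An annotated gene start lay in 2 of 9 higher and 2 of 45 lower tiles, beside 6.99% of all tested.

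Around gene starts, 3480 windows of 500 bp to either side were tested, and 2 were set apart higher (0.0575%) and 1 lower (0.0287%). The higher ones were Gal and Rnf26. The Rnf26 window was tested only through WSB/EiJ, since the others' mean of 1.20% lay under the filter on low levels. The lower one was Epcam, an epithelial adhesion molecule that marks bile duct cells in liver. Its window (6 positions) had 27.2%, 22.4% and 23.1% in WSB/EiJ, against 39.7%, 54.6% and 69.2% as lowest, median and highest elsewhere, a difference of -31.3 points (limma adjusted p = 3.6e-08). With windows of 1000 bp to either side no window was set apart lower. By adjusted p alone, 76 windows were higher (2.18%) and 534 lower (15.3%).

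Among the bile duct markers, Krt7, a keratin gene, was also lower, with 17.8%, 16.1% and 16.9% against 14.5%, 24.2% and 38.4% (limma adjusted p = 0.0147), and these ranges overlapped. Krt19 and Sox9 were low in all strains, at 3.09% ± 1.35 and 0.573% ± 0.492 (SD, n = 3) in WSB/EiJ. The mean over the 4 measured markers, 10.2% to 12.2% in WSB/EiJ and 14.7% to 26.7% in the others, rests mainly on Epcam and adds nothing to its call. Of stellate cell and fibroblast markers, 1 of 4 tested windows was lower and 0 higher, beside 15.3% and 2.18% of all windows. Nothing is read from that count. The window was that of Col1a1, a collagen gene, at 31.6% ± 4.65 (SD, n = 3) against 32.004% to 53.7% (limma adjusted p = 0.0150), with overlapping samples. Des, Pdgfrb and Lrat did not pass (limma adjusted p = 0.229, 0.398 and 0.474), and Lrat was higher by 0.591 points. The list mean was 12.3% to 15.03% against 13.5% to 20.4%. The part of bile duct cells, stellate cells or fibroblasts in these differences was not tested. In the hepatocyte marker list, 0 of 6 tested windows passed in either direction by limma's adjusted p, beside 15.3% lower and 2.18% higher of all windows, so nothing is read from that count, and the list mean of 2.88% to 4.79% lay within the others' 1.17% to 8.95%. Over the tiles of these hepatocyte markers, 5 of 21 were lower and 0 higher by adjusted p, beside 5.17% lower and 1.67% higher of all tiles, and their median difference was -2.46 points. Of bile duct marker tiles 5 of 12 were lower.

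The Hox genes, which set position along the body axis, had 5 of 35 tested windows lower and 0 higher by adjusted p, close to the 15.3% and 2.18% of all windows, and 8 of 138 tiles lower, close to the 5.17% of all tiles. Of the 5, Hoxd9 had a WSB/EiJ mean of 2.25%, under the filter on low levels. Their mean level was 4.15% to 4.60% in WSB/EiJ and 4.82% to 7.42% elsewhere. Hoxc12 had 3.88%, 5.23% and 4.54%, against 4.92%, 8.97% and 18.6% as lowest, median and highest (limma adjusted p = 0.00716). Over all protein-coding genes with a measured window the mean was 6.57% to 6.88% in WSB/EiJ and 6.65% to 7.53% in the others.

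**Figure D4:**
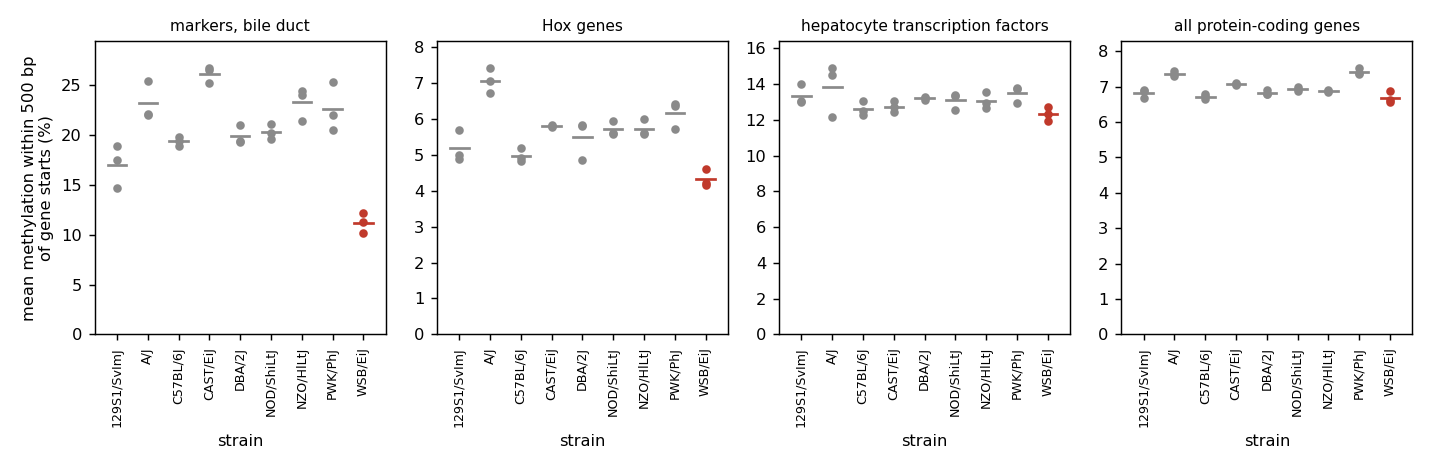
Mean methylation (%) within 500 bp of gene starts for bile duct markers, Hox genes, hepatocyte transcription factors and all protein-coding genes, with 1 point per sample, a line at each strain's mean and WSB/EiJ in red. The WSB/EiJ points lie below all others for bile duct markers (10.2% to 12.2%, mainly through Epcam) and Hox genes (4.15% to 4.60%), although the count of Hox windows called lower is near that of all windows, and overlap the others in the remaining panels.

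Of the list for fatty acid, triglyceride and cholesterol metabolism, 4 of 9 tested windows were lower and 0 higher, beside 15.3% lower and 2.18% higher over all windows. Of these 4, Mvk, a gene of the mevalonate pathway, had 0% to 0.168% in WSB/EiJ and a median of 0.632% and a highest value of 47.9% elsewhere. Elovl3, a fatty acid elongase gene, had 1.39%, 2.68% and 0%, against a median of 5.08% and up to 22.6%. Both passed the filter on low levels only through other samples, so their direction was fixed by the filter and the count supports nothing. Of the tiles of this list 9 of 123 were lower and 2 higher, beside 5.17% and 1.67% of all tiles. Gpam, which encodes the first enzyme of glycerolipid synthesis, had 4.58%, 4.23% and 4.01%, against 5.66%, 9.65% and 16.6% (limma adjusted p = 5.04e-05), with no overlap but a gap of only 1.09 points. In the list for insulin, growth hormone and glucose metabolism 0 of 5 windows passed in either direction by limma's adjusted p, and among cytochrome P450 genes 2 of 9 windows were lower, beside 15.3% of all windows, and 9 of 74 tiles lower and 2 higher, beside 5.17% and 1.67% of all tiles. Of hepatocyte transcription factors, 2 of 9 tested windows were lower and 0 higher, while 12 of 79 tiles were lower and 0 higher, beside 5.17% and 1.67% of all tiles. The lower windows were Creb3l3, at 81.0% ± 2.24 (SD, n = 3) against 75.7% to 93.8%, and Nr5a2, at 12.4% ± 6.20 (SD, n = 3) against 10.6% to 38.7%. The start of Cwc22, which lies in the copy-number variant behind meiotic drive in WSB/EiJ, was near 0 in all strains, with a WSB/EiJ range of 0.379% to 0.737% and at most 2.23% elsewhere.

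Imprinted genes carry methylation on the copy from 1 parent, and 3 of 28 tested windows were lower in WSB/EiJ and 0 higher, beside 15.3% and 2.18% of all windows. Of these 3, 1 start of Commd1 had a WSB/EiJ mean of 0.694% and up to 15.5% elsewhere. It passed the filter on low levels only through other samples, so its direction was fixed. Another Commd1 start had 35.5% against 23.4% to 47.6% and did not pass (limma adjusted p = 0.548). At 1 start of Zdbf2 levels were low in all samples, with 2.57% against 2.32% to 5.42% (limma adjusted p = 0.0443). Nap1l5 had 66.0%, 54.3% and 48.0%, against 50.8%, 73.4% and 83.0% (limma adjusted p = 0.000327), and the groups overlapped. Of the tiles of imprinted genes 2 of 136 were lower and 2 higher by adjusted p, beside 5.17% and 1.67% of all tiles. Within 1000 bp of the start coordinate of Mest, 10 positions had 43.9%, 52.2% and 65.7%, inside the others' 19.4% to 86.9%. The ribosomal RNA repeat annotated as Rn18s-rs5 (chr17:39846354-39848202, 82 positions) had 17.1%, 14.9% and 19.2%, inside the others' 6.59% to 43.0%. Among solute carrier genes, 2 of 649 tiles were set apart, in Slc6a9, a glycine transporter gene, and Slc7a15, both lower (beside 0.0987% of all tiles set apart lower), at 42.1% ± 4.31 and 69.3% ± 3.44 (SD, n = 3) against at least 56.1% and 86.4% in the others. In the Slc7a15 tile 4 of 8 positions were lower, 2 of them by at least 10 points. Of 4927 tiles of predicted genes 6 were set apart, 1 higher and 5 lower, close to the 0.0197% and 0.0987% of all tiles. The lower ones not described above overlapped Gm33248, at 41.0% ± 3.74 (SD, n = 3) against at least 61.3%, Gm52825 with Ssh1, at 18.9% ± 1.63 (SD, n = 3) against at least 32.5%, and Gm20517 with Usp49, at 17.6% ± 2.27 (SD, n = 3) against at least 31.2%.

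Compared with 1 strain at a time, with tiles called at an adjusted p under 0.05 and strain means at least 25 points apart, WSB/EiJ differed least from 129S1/SvImJ and most from PWK/PhJ. It was higher in 168 tiles (0.368%) and lower in 189 (0.414%) against 129S1/SvImJ, and higher in 296 (0.649%) and lower in 810 (1.78%) against PWK/PhJ. Against A/J it was higher in 114 (0.25%) and lower in 492 (1.08%). Against C57BL/6J the directions were near even, with 229 higher (0.502%) and 199 lower (0.436%). The higher and lower shares were 0.664% and 1.46% against CAST/EiJ, 0.482% and 0.445% against DBA/2J, 0.366% and 0.629% against NOD/ShiLtJ, and 0.412% and 0.548% against NZO/HlLtJ. All 8 of these comparisons share the WSB/EiJ samples.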

How the data were processed

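Genomic DNA of 27 hepatocyte samples was profiled by reduced representation bisulfite sequencing. Per the submitters' processing notes, Trim Galore 0.6.3, Bowtie2 and Bismark 0.22 were used, with GRCm38 and mm10 as builds. The deposited values are the percent of methylated reads per position, per the file headers, 1 file per sample, and coverage filters are not given in the sources used here. With no counts or coverage in the files, the tests used percentages, no interval for depth could be given, and precision rests on the 3 samples per strain. Of listed positions in RefSeq promoter windows, 278096 of 278102 lay in a CG of GRCm38.p6.

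Percentages were turned into log2((percent + 5)/(100 - percent + 5)) and fitted with strain as a factor over all 27 samples. The contrast was the WSB/EiJ mean minus the mean of the 8 other strain means. It used limma's moderated statistics and Benjamini-Hochberg adjustment over all features. Its error came from differences between samples of the same strain, and differences among the other strains did not enter it. The fit was written in Python 3.11.15 with numpy 2.4.6 and gave the same 3120 calls at adjusted p under 0.05 as limma 3.58.1 in R 4.3.3. It was tested on simulated data. Single values per sample used exact permutation tests, which shuffled single samples although samples of the same strain are not independent. Gene names and spans came from RefSeq (GRCm38.p6). The C57BL/6J files name the mitochondrial chromosome M and the others MT, and leaving out C57BL/6J was among the alternatives, beside other offsets, gaps, tile sizes, strains and samples left out, and a replicate block.

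Named were up to 15 tiles per direction with the largest difference, set apart gene starts, list members set apart, the chromosomes with the highest and lowest shares, Mest and Rn18s-rs5. Other genes, among them Brms1l, Cnn3, Krt7, Hoxc12, Gpam and Nap1l5, were named after their values were seen. The comparison and the gene lists were chosen with earlier results of these data known.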

Additional observations from a re-analysis of the deposited data

Results flagged for a closer look

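Positions outside the comparisons, listed in all 3 WSB/EiJ samples and in none of the other 24, numbered 17413, or 0.646% of those listed in all 3, and their mean methylation was 72.9%. The same count was 103624 in CAST/EiJ, 90699 in PWK/PhJ and 3204 to 7554 in the 6 remaining strains. Conversely, 12370 of the positions present in every one of the 24 others were missing from all WSB/EiJ files (0.721%). Such losses fell in 3 of the 9 tiles set apart higher and 4 of the 45 set apart lower, beside 2.61% of all tested tiles, and their part in those levels was not tested.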

How the results depend on the processing

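Over the alternatives, 1390 of 1470 values kept their direction and side of the threshold or their size. None of the 1063 values of the 24 named tiles and 3 named gene starts reversed, while 19 of those were no longer set apart, 14 of them with a gap of 25 points. These features were picked for lying apart from all other samples. Under most settings, such as samples left out or thresholds changed, a reversal could not occur, so its absence supports nothing. With no gap, 88 tiles were higher and 446 lower, 540 and 1023 positions, and 12 and 66 gene start windows. With a gap of 25 points these were 5 and 6 tiles, 136 and 116 positions, and 0 windows lower. Taking the largest of 8 pairwise p-values left 158 positions higher and 59 lower. Without CAST/EiJ and PWK/PhJ there were 40 tiles higher and 71 lower, 526 and 634 positions, and 4 windows lower, and without C57BL/6J 4 windows lower. Tiles set apart higher numbered 24 with at least 3 positions a tile, 18 with tiles of 500 bp and 16 with tiles moved by 500 bp, and lower tiles 19 with at least 10 positions. Windows of 1000 bp left 0 lower. Leaving out 1 sample gave 9 to 15 tiles higher and 45 to 67 lower, 312 to 370 and 384 to 527 positions, and 2 to 3 and 1 to 3 windows. A sample left out can only keep or widen a gap, so these counts lean upward. At 10 points, the tiles called against single strains were 4037 (PWK/PhJ), 3481 (CAST/EiJ), 2459 (A/J), 1817 (NOD/ShiLtJ), 1619 (NZO/HlLtJ), 1549 (DBA/2J), 1506 (C57BL/6J) and 1179 (129S1/SvImJ). Mean methylation differed by -0.343 points without CAST/EiJ and PWK/PhJ (exact permutation p = 0.0692) and by -0.552 to -0.426 without 1 WSB/EiJ sample. Positions listed differed by 37782 to 101700 without 1 WSB/EiJ sample, with exact p = 0.04 without replicate 4. The share of X positions differed by -0.012 points with limits of 30 to 70% (exact p = 0.991), reversing a difference that was not called, and by 0.131 to 0.436 without 1 WSB/EiJ sample. Centring each sample, chosen after seeing the data, gave 12 tiles higher and 42 lower. The cause of these shifts was not tested.

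Samples with the same replicate number were at most weakly correlated. Over 16 pairs with the same number, correlations of deviations ran from -0.006 to 0.032, with a median of 0.008. Over 56 pairs with different numbers they ran from -0.024 to 0.016, with a median of -0.003. The difference between these medians was not tested. With a replicate block, 9 tiles were higher and 45 lower, 302 and 364 positions, and 2 and 1 windows. No depth is known, so levels from few reads cannot be told from precise ones.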
